A study of Arabidopsis thaliana with 9 samples.

Results

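The seedlings labelled *sac3bc* were compared with the wild type Col across all loci of *Arabidopsis thaliana* that the count tables hold. The comparison takes the 3 libraries with the genotype label *sac3bc* and the 3 with the genotype label Col, which makes 6 of the 9 libraries of the series, and another genotype, *thp1-5*, fills the other 3. All groups were untreated seedlings, 14 days old, raised at 22 °C in days of 16 h light and 8 h dark on 1/2 Murashige and Skoog medium with 1% sucrose. Of 37361 loci, 22400 had enough counts to be tested. The label *sac3bc* names no allele, and the sources used here give neither the place of the mutations in *SAC3B* and *SAC3C* nor the number of lines. Nothing in the labels states that the replicates came from separate cultures, and the p-values therefore cover the spread among these libraries alone, part of which may be technical. A seedling pools leaves, stem and root, and in such bulk RNA fewer cells of a type and less RNA per cell cannot be told apart.

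TREX-2 is a protein complex at the inner side of the nuclear pore that couples transcription of a gene to the export of its messenger RNA. The SAC3 protein is its scaffold, on which THP1, centrin and the small protein DSS1 assemble, and in plants NUP1 ties it to the pore. *Arabidopsis* has a family of SAC3-like genes, *SAC3A*, *SAC3B* and *SAC3C*, and the series title names TREX-2 and the pore together with microRNA biogenesis.

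Transcripts of the genes that the genotype names were lower in the *sac3bc* libraries but not absent, and the paralog that it does not name was lower still relative to Col. Levels are given as CPM, the counts of a locus per 1000000 counts of the library, scaled by TMM, a factor per library that centres the fold changes of most genes on 0. *SAC3B* (AT3G06290) stood at 47.2, 47.0 and 46.6 CPM in the Col libraries and at 23.1, 26.3 and 27.7 in the *sac3bc* libraries. *SAC3C* (AT3G54380) stood at 15.4, 15.8 and 14.2 CPM in Col and at 7.55, 7.62 and 7.95 in *sac3bc*. The groups did not overlap for either gene, and the *sac3bc* means were 54.7% and 50.8% of the Col means. *SAC3A* (AT2G39340) had 67.3, 59.4 and 66.3 CPM in Col and 12.1, 13.9 and 12.4 in *sac3bc*, which left 19.9% of the Col mean. *THP1* (AT2G19560, named *EER5* in the reference), the partner subunit, had 11.6, 12.1 and 14.1 CPM in Col and 6.63, 5.00 and 6.88 in *sac3bc*. By edgeR's quasi-likelihood test the log2 fold change of *sac3bc* against Col was -0.87 ± 0.06 for *SAC3B* (SE; adjusted p = 3.46e-27), -0.97 ± 0.10 for *SAC3C* (adjusted p = 1.3e-15), -2.32 ± 0.06 for *SAC3A* (adjusted p = 5.36e-69) and -1.03 ± 0.12 for *THP1* (adjusted p = 2.96e-14). The scaffold genes and their partner therefore moved in the same direction. Counts over a whole gene do not separate full-length from truncated transcripts, so they check the genotype labels only in part. In *thp1-5*, *SAC3A* had 36.6, 39.2 and 40.1 CPM and *SAC3B* 30.8, 32.4 and 36.3 CPM, between the other groups, and in the direct test the log2 difference of *sac3bc* from *thp1-5* was -1.59 ± 0.07 for *SAC3A* (adjusted p = 1.32e-45, edgeR) and -0.36 ± 0.06 for *SAC3B* (adjusted p = 1.2e-06, edgeR).

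**Figure D1:**
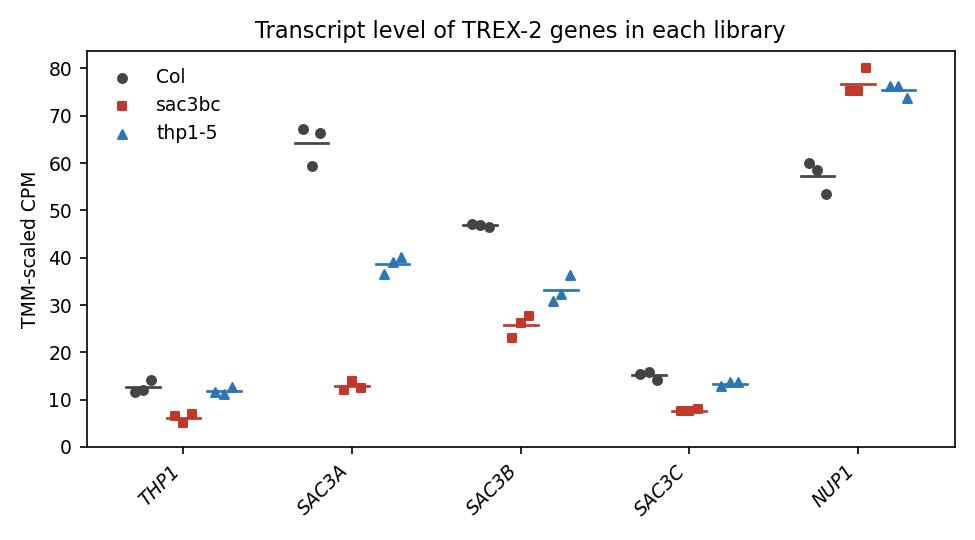
TMM-scaled CPM (y axis) of 5 TREX-2 genes in each of the 9 libraries; points are libraries and short lines group means. The 3 *sac3bc* libraries lie below the 3 Col libraries for *THP1*, *SAC3A*, *SAC3B* and *SAC3C*, with the widest gap at *SAC3A* (a mean of 12.8 against 64.3 CPM), and above them for *NUP1*.

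Of the 9 genes listed as TREX-2, all of which were tested, 6 were called lower and 1 higher at an adjusted p under 0.05, beside 33.0% and 35.0% of all tested loci; with total counts alone in place of TMM, 5 were lower and 3 higher. The higher one was *NUP1*, whose nucleoporin holds the complex at the pore, at 60.0, 58.5 and 53.5 CPM in Col and 75.2, 75.2 and 80.0 in *sac3bc* (0.43 ± 0.05; adjusted p = 8.91e-16, edgeR). The list median was -0.81 on the log2 scale, against 0.03 for all tested loci.

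Most tested loci differed between the groups, and most differences were small. Absence of overlap between the groups, given for single genes, was not counted over all loci and sets no gene apart. edgeR called 15231 of 22400 loci (68.0%), 7829 of them higher and 7402 lower in *sac3bc*. At 2-fold or more, 1570 were higher (7.01% of tested loci) and 1248 lower (5.57%). Of the calls, 17.7% were under 1.2-fold, 38.5% lay between 1.2-fold and 1.5-fold, and 3.43% were over 4-fold. The balance of directions rests on the scaling. With total counts alone 13620 loci were called higher and 3637 lower, so that 78.9% of the calls were higher against 51.4% with TMM, and the median of all loci moved from 0.03 to 0.37. Under that scaling 11466 of the 15231 calls had an unchanged sign, 902 took the opposite sign and 2863 were lost. Of the 2818 calls at 2-fold or more, 2778 kept their sign and 0 took the opposite one. That 0 was fixed in advance, because total counts move all loci by nearly the same step. The quartiles went from -0.34 and 0.39 to -0.01 and 0.72, a step too small to turn a change of 2-fold. The top 10 loci by abundance held 9.33% ± 0.101 of a Col library and 6.20% ± 0.146 of a *sac3bc* library (SD, n = 3 each). Libraries held 13150850 to 15629037 counts in Col and 16054494 to 17923310 in *sac3bc*. The first principal component, with 72.2% of the variance, separated the Col libraries from the other 6, and Col replicate 1 stood apart from the other Col libraries on the third (4.31%); without it 14603 loci were called.

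Among called loci with a symbol, a mean of at least 1 CPM over the 6 libraries and no overlap of the groups, the 15 largest rises included genes of nutrient uptake, iron regulation, defence and sugar transport. *NRT2.5*, a high-affinity nitrate transporter gene of nitrogen-starved plants, had 0 counts over the Col libraries and 37, 40 and 43 counts in the *sac3bc* libraries, which is at least 27.3-fold higher with a limit of 3 counts over the Col group. *HAC2*, a histone acetyltransferase gene, had 1 count over the Col libraries and 118 over the *sac3bc* libraries, a ratio of 80.5 with an exact 95% interval of 14.2 to 3206 that covers counting error only. *HEC1*, a bHLH gene of the gynoecium that also acts in light signalling, had 0.176, 0.368 and 0.225 CPM in Col and 9.21, 8.62 and 8.72 in *sac3bc* (5.04 ± 0.26; adjusted p = 2.26e-39, edgeR). Each of these loci was near the limit of detection in Col and clear of it in every *sac3bc* library. *NRT2.5*, *HAC2* and *HEC1* passed the filter through the mutant libraries and could be called only as rises. *GPT2*, which encodes a plastid glucose-6-phosphate translocator induced by sugar, went from 1.32, 1.47 and 1.12 CPM to 24.9, 26.6 and 27.7, a log2 fold change of 4.33 ± 0.14 (adjusted p = 3.59e-61, edgeR). *ACS7*, an ethylene precursor synthase gene, rose by 3.3 ± 0.27, the transcription factor genes *MYB15* by 4.15 ± 0.51 and *DREB26* by 3.13 ± 0.18, and the receptor-like kinase genes *CRK30*, *CRK15* and *CRK6* by 3.26 ± 0.27, 3.15 ± 0.36 and 3.09 ± 0.24. The other genes among these 15, *BHLH100*, *bHLH38*, *bHLH39*, *PS2* and *CYP71A13*, are described with their groups below.

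Under the same limits, the 15 largest falls included seed storage genes and genes of specialised metabolism. *QQS*, an orphan gene that affects leaf starch, had 61.3, 64.5 and 64.5 CPM in Col and 1.66, 2.1 and 1.99 in *sac3bc* (-5.04 ± 0.10; adjusted p = 1.48e-87, edgeR). *HIS1-3*, a drought-induced linker histone gene, had 93.1, 102 and 90.9 CPM in Col and 6.81, 7.26 and 7.49 in *sac3bc* (-3.72 ± 0.07; adjusted p = 5.25e-91, edgeR). For both genes every Col library lay far above every *sac3bc* library. *DELTA-VPE*, a vacuolar protease gene of the seed coat, fell by 4.48 ± 0.35 on the log2 scale, the triterpene synthase gene *PEN3* (AT5G36150) by 4.41 ± 0.50, the cytochrome P450 genes *CYP76G1* and *CYP93D1* by 3.83 ± 0.40 and 3.72 ± 0.45, and *CHAT*, an acetyltransferase gene of green leaf volatiles, by 3.79 ± 0.34. The glucosidase genes *BGLU19* and *BGLU45* fell by 4.21 ± 0.16 and 3.62 ± 0.26, and *TSPO*, a stress-induced membrane protein gene, by 3.58 ± 0.38. *DELTA-VPE*, *PEN3*, *CYP76G1*, *CYP93D1* and *TSPO*, and *CRU3*, *PER1* and *FLC* below, had from 5 to 15 counts over the *sac3bc* libraries, so their fold changes rest on few reads.

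**Figure D2:**
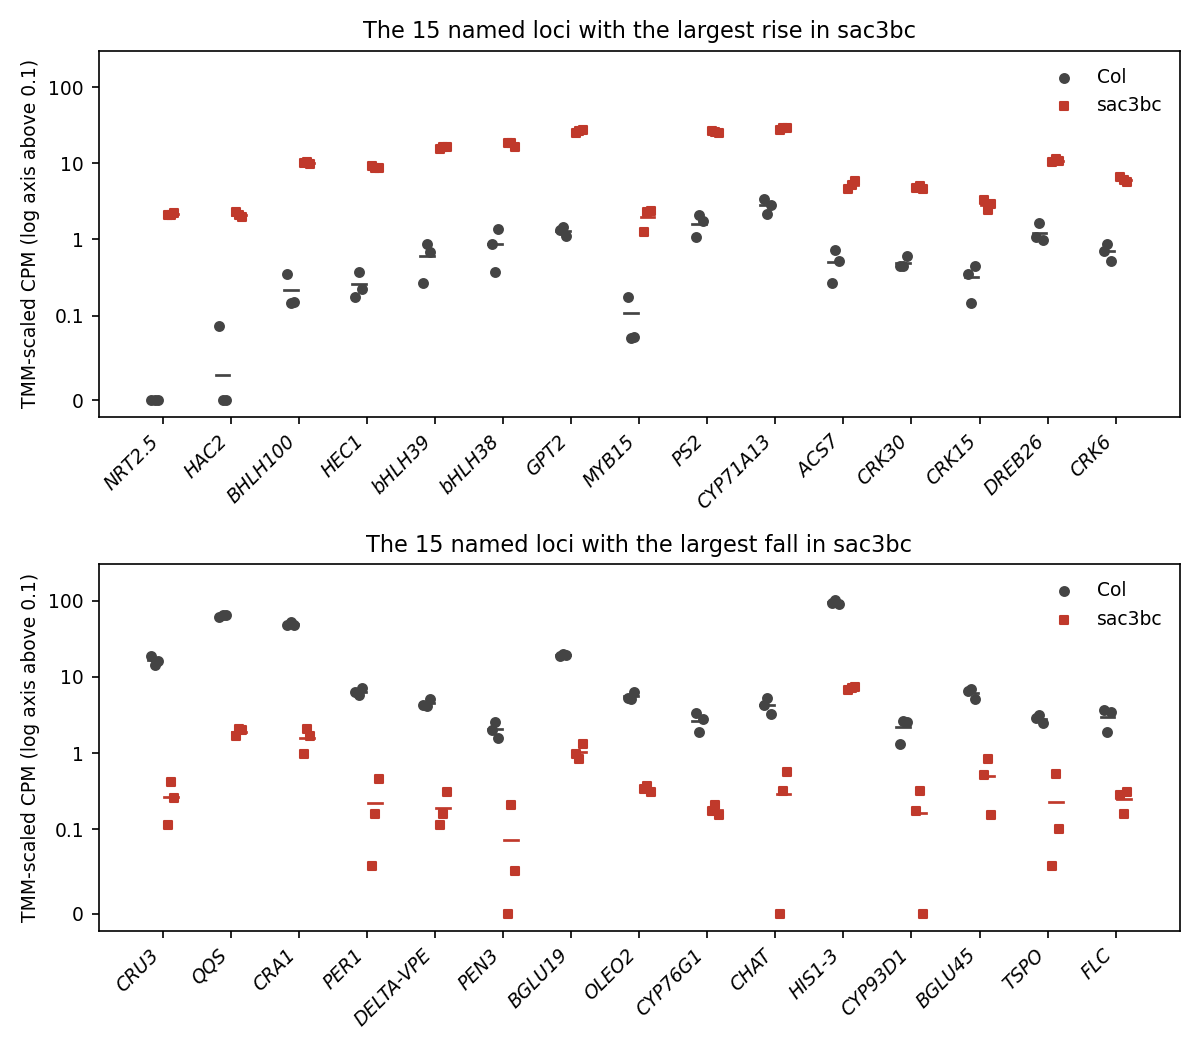
TMM-scaled CPM (y axis, logarithmic above 0.1) of the 15 loci with the largest rise (top) and the 15 with the largest fall (bottom) in *sac3bc* among called loci with a symbol, a mean of at least 1 CPM over the 6 libraries and no overlap of the groups; points are the 3 Col and 3 *sac3bc* libraries and short lines group means. The absence of overlap was part of the choice, and *NRT2.5* sits at 0 in all 3 Col libraries.

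Counted in absolute CPM, the largest losses were in genes of light harvesting and carbon fixation and the largest gains mostly in genes of primary metabolism. *CAB1*, which encodes a chlorophyll-binding antenna protein, went from 23730, 23171 and 23656 CPM to 11222, 10860 and 10945. *RAP2.4*, an ERF-family transcription factor gene, went from 84.4, 83.6 and 79.4 to 358, 358 and 347 CPM (2.1 ± 0.03; adjusted p = 1.9e-104, edgeR). The groups did not overlap at either gene. The glycolytic genes *GAPC1* and *LOS2* rose by 0.72 ± 0.02 and 0.67 ± 0.02, the methionine adenosyltransferase gene *MTO3* by 0.93 ± 0.02 and the mitochondrial ADP/ATP carrier gene *AAC1* by 0.44 ± 0.02.

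Nuclear genes of photosynthesis fell as a group. All 35 listed genes were tested, and 35 were called lower and 0 higher, beside 33.0% and 35.0% of all tested loci; with total counts 34 were lower and *RBCS1B* was higher. The list median was -0.81 (-0.47 with total counts), and 7 fell by 2-fold or more. *PSAF*, a subunit of photosystem I, had 3817, 3725 and 3728 CPM in Col and 1825, 1813 and 1795 in *sac3bc* (-1.05 ± 0.02; adjusted p = 9.07e-94, edgeR). *PSAN*, another subunit, had 2192, 2254 and 2274 CPM in Col and 1010, 1005 and 1007 in *sac3bc* (-1.15 ± 0.02; adjusted p = 4.22e-95, edgeR). The groups did not overlap at either gene. *CAB1* fell by 1.1 ± 0.02, *CAB3* by 1.04 ± 0.02, *CAB2* by 0.81 ± 0.02, the photosystem I antenna gene *LHCA4* by 0.85 ± 0.02 and *RBCS1A*, a small subunit of Rubisco, by 0.68 ± 0.02. *LHB1B1* had the furthest fall of the list (-2.22 ± 0.02) and its close copy *LHB1B2* fell by 1.04 ± 0.04, but all exonic bases of *LHB1B2* overlap another locus. The *CAB*, *LHB1B* and *RBCS* genes have near-identical copies, and how the counting divided reads between copies is unknown here. The summed level of the list, which also marks leaf mesophyll, ran from 176150 to 180089 CPM in Col and from 97804 to 101670 in *sac3bc*, with none of the 35 at 0. Whether leaf cells made up the same share of the seedlings was not tested.

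Chlorophyll synthesis showed the same direction with smaller steps and 2 exceptions. Of 14 genes, 12 fell and 1 rose (median -0.41), beside 33.0% and 35.0% of all tested loci. Total counts gave 8 lower and 6 higher, median -0.08. *GUN5* (AT5G13630), *ALB1* (*CHLD*) and *CHLI1* encode the subunits of magnesium chelatase, the first enzyme committed to chlorophyll. *GUN5* had 2318, 2264 and 2290 CPM in Col and 1443, 1481 and 1481 in *sac3bc* (-0.64 ± 0.02), and *CHLD* had 266, 272 and 261 and 149, 147 and 147 (-0.85 ± 0.03). *CHLI1*, named after its values were seen, did not follow them: it had 421, 425 and 424 CPM in Col, 404, 420 and 408 in *sac3bc* and 139, 146 and 144 in *thp1-5*. It was not called in *sac3bc* against Col (-0.04 ± 0.03; adjusted p = 0.112, edgeR), where total counts gave the opposite sign (0.29) and DESeq2 made a call at -0.06, and in the direct test it was 1.52 ± 0.03 higher in *sac3bc* than in *thp1-5* (adjusted p = 2.92e-91, edgeR). The methyltransferase gene *CHLM* fell by 0.84 ± 0.03 and the protochlorophyllide reductase gene *PORB* by 0.45 ± 0.02. The gene that rose was *GUN4*, an activator of the chelatase (0.31 ± 0.03), which shares 73.0% of its exonic bases with another locus.

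Of 105 tested loci of the chloroplast genome, 55 were called lower and 7 higher (median -0.43), beside 33.0% and 35.0% of all tested loci. Total counts gave 35 lower and 20 higher (median -0.09), beside 3637 lower and 13620 higher among all 22400 tested loci. ATCG00440 had 69.0, 83.3 and 83.7 CPM in Col and 28.2, 26.9 and 26.9 in *sac3bc* (-1.53 ± 0.05; adjusted p = 8.04e-56, edgeR), and ATCG00290 changed by -1.51 ± 0.18. Their summed level was 8982 to 10358 CPM in Col and 5298 to 5402 in *sac3bc*. Poly(A) selection keeps only a small part of chloroplast transcripts, so these levels are those of the selected RNA. Of the 20 tested mitochondrial loci, 8 were lower and 4 higher, beside 33.0% and 35.0% of all tested loci. Total counts turned their median of -0.31 to 0.03.

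Most tested seed transcripts that Col seedlings still carried were nearly gone in *sac3bc*. Of 13 listed seed genes 8 passed the filter, and those 8 fell (median -4.01; 7 lower and 0 higher with total counts). Of these 8, 7 fell by 2-fold or more, and the smallest fall was -0.55 on the log2 scale. Most of the 8 passed through their Col level, so these counts describe the members that could be tested. *CRA1*, which encodes a cruciferin, a 12S storage globulin, had 48.5, 53.2 and 47.6 CPM in Col and 0.972, 2.05 and 1.68 in *sac3bc*. *CRU3*, another cruciferin gene, had 19.1, 14.2 and 16.2 CPM in Col and 0.114, 0.421 and 0.255 in *sac3bc*. These proteins feed the germinating seedling. *OLEO2*, an oil body protein gene, had 5.29, 5.08 and 6.30 CPM in Col and 0.343, 0.368 and 0.306 in *sac3bc*. *PER1*, a seed peroxiredoxin gene, had 6.26, 5.74 and 7.20 CPM in Col and 0.0572, 0.158 and 0.459 in *sac3bc*. The groups were far apart at each of these genes. The fits gave -4.97 ± 0.11 for *CRA1* (adjusted p = 1.68e-80, edgeR), -5.90 ± 0.22 for *CRU3* (adjusted p = 2.55e-55), -4.01 ± 0.28 for *OLEO2* (adjusted p = 1.44e-27) and -4.74 ± 0.30 for *PER1* (adjusted p = 3.95e-31). The 2S albumin gene *SESA1* and the oleosin gene *OLEO1* changed by -4.02 ± 0.58 and -3.45 ± 0.36. The summed level of the 13 genes ran from 87.6 to 89.4 CPM in Col and from 4.69 to 6.15 in *sac3bc*, with 1 member at 0 in each Col library and 1 to 2 in each *sac3bc* library. Whether seed residues in the sampled material differed between groups was not tested.

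Genes of abscisic acid, cold and drought fell in the same libraries. Of 21 tested, 16 fell and 2 rose (median -0.55), beside 33.0% and 35.0% of all tested loci. Total counts gave 11 lower and 4 higher, median -0.21. *RAB18*, a dehydrin gene, had 112, 112 and 112 CPM in Col and 24.7, 21.6 and 22.4 in *sac3bc* (-2.30 ± 0.05; adjusted p = 8.12e-82, edgeR). *KIN2*, a cold-induced protein gene, had 474, 470 and 490 CPM in Col and 101, 94.9 and 92.5 in *sac3bc* (-2.32 ± 0.03; adjusted p = 4.3e-112, edgeR). *COR15A* and *COR15B*, which encode chloroplast cryoprotective proteins, fell by 1.80 ± 0.03 and 1.52 ± 0.04. These are effector genes of the cold and drought response, and none of them overlapped between the groups. *LTI65* (*RD29B*) and *LTI78* (*RD29A*) fell by 2.30 ± 0.15 and 1.12 ± 0.03, the dehydrin gene *LTI30* by 1.1 ± 0.06 and the proline synthesis gene *P5CS1* by 0.87 ± 0.02. The members that rose were *ABI1* and *ABI2*, phosphatases that dampen abscisic acid signalling (0.62 ± 0.03 and 0.39 ± 0.06).

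The ER body is a compartment of Brassicaceae that stores glucosidases against herbivores. All 10 of its listed genes fell, beside 33.0% of all tested loci called lower (median -0.96; 10 lower with total counts). *PYK10*, its main glucosidase, had 3708, 3638 and 3658 CPM in Col and 1646, 1689 and 1677 in *sac3bc* (-1.13 ± 0.02; adjusted p = 8.47e-98, edgeR). The lectin gene *JAL22* had 428, 433 and 418 CPM in Col and 76.8, 74.1 and 80.1 in *sac3bc* (-2.47 ± 0.03), and its relative *JAL33* fell by 1.47 ± 0.03. *JAL23*, a related lectin gene that is not among the 10, rose by 0.49 ± 0.10. The leaf glucosidase gene *BGLU18* fell by 0.98 ± 0.03.

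Sugar and starch genes moved both ways, with 11 lower and 5 higher of 17, beside 33.0% and 35.0% of all tested loci. The median was -0.51, and total counts gave 8 lower and 7 higher. Genes that are induced by darkness and low sugar were lower: *SEN1* had 140, 142 and 136 CPM in Col and 12.6, 12.7 and 11.8 in *sac3bc* (-3.49 ± 0.05; adjusted p = 3.47e-100, edgeR), and *ASN1*, an asparagine synthetase gene, had 109, 103 and 104 and 12.5, 11.2 and 11.8 (-3.15 ± 0.06; adjusted p = 1.29e-88, edgeR). *DIN10* fell by 1.21 ± 0.03. The hexose transporter gene *STP1* fell by 1.85 ± 0.03, and *SEX1* and *BAM3* (*CT-BMY*), which act in starch breakdown, by 1.02 ± 0.02 and 1.17 ± 0.03. *GPT2* and *GBSS1*, a starch synthase gene, rose (4.33 ± 0.14 and 0.74 ± 0.05).

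Nutrient deficiency genes rose, with the iron regulators in front. Of 17 tested iron genes, 12 rose and 1 fell (median 0.87; 16 higher and 1 lower with total counts), beside 35.0% of all loci called higher. *BHLH100*, *bHLH38* and *bHLH39* encode the related transcription factors that plants make when iron is short. *BHLH100* had 0.353, 0.147 and 0.15 CPM in Col and 10.2, 10.4 and 9.79 in *sac3bc* (5.54 ± 0.27; adjusted p = 1.02e-42, edgeR). *bHLH38* had 0.881, 0.368 and 1.35 CPM in Col and 18.4, 18.3 and 16.2 in *sac3bc* (4.34 ± 0.18). *bHLH39* had 0.264, 0.883 and 0.675 CPM in Col and 15.6, 16.4 and 16.3 in *sac3bc* (4.67 ± 0.19). All 3 were close to the limit of detection in Col and clear of it in every *sac3bc* library, and 35.7% of the exonic bases of *bHLH38* overlap another locus. All 3 passed the filter through the mutant libraries and could be called only as rises. The count of the iron list therefore describes the members that could be tested. Further down the pathway the steps were smaller. *BTS*, a ubiquitin ligase gene that limits the response, rose by 0.87 ± 0.03, the regulator *PYE* by 1.49 ± 0.08, the vacuolar transporter gene *ZIF1* by 1.11 ± 0.05, the nicotianamine synthase gene *NAS4* by 1.56 ± 0.08 and the root iron transporter gene *IRT1* by 1.07 ± 0.10. The one that fell was *FER4*, a ferritin gene (-0.83 ± 0.07).

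Genes of phosphate starvation rose in 13 of 16 cases and fell in 2, beside 35.0% and 33.0% of all tested loci. The median was 0.90, and total counts gave 14 higher and 2 lower. *PS2* (AT1G73010), a pyrophosphatase gene, had 1.06, 2.06 and 1.72 CPM in Col and 26.8, 25.8 and 24.6 in *sac3bc* (3.96 ± 0.14; adjusted p = 1.97e-58, edgeR). *SPX1*, a phosphate sensor gene, had 22.1, 29.5 and 29.9 CPM in Col and 137, 137 and 140 in *sac3bc* (2.33 ± 0.05; adjusted p = 2.7e-55, edgeR). The acid phosphatase gene *PAP17* had 33.2, 36.1 and 36.7 and 90.9, 89.1 and 90.7 CPM (1.35 ± 0.05). These groups did not overlap. *MGD3* (*MGDC*), which makes galactolipid in place of phospholipid, rose by 2.70 ± 0.22, the ribonuclease gene *RNS1* by 2.58 ± 0.28, *SPX3* by 2.47 ± 0.39 and the uptake transporter gene *PHT1;4* by 1.35 ± 0.08. The exceptions were *PHO2*, a ubiquitin-conjugating enzyme gene that restrains uptake (-0.62 ± 0.03), and *PHO1*, which loads phosphate into the xylem (-0.77 ± 0.05).

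Flavonoid and anthocyanin genes rose: 15 of 17 tested were higher and 2 lower, beside 35.0% and 33.0% of all tested loci. The median was 1.34, and scaling by total counts gave the same numbers of calls. *TT4*, the chalcone synthase that opens the pathway, had 48.7, 45.2 and 45.3 CPM in Col and 115, 120 and 117 in *sac3bc* (1.34 ± 0.04; adjusted p = 1.51e-62, edgeR). The entry enzyme of phenylpropanoids, *PAL1*, rose by 1.22 ± 0.03 and the flavonol synthase gene *FLS1* by 1.58 ± 0.08. The late anthocyanin genes moved further. *DFR* had 2.12, 1.54 and 1.95 CPM in Col and 12.1, 13.0 and 12.6 in *sac3bc* (2.76 ± 0.16), *LDOX* rose by 2.62 ± 0.16 and *UF3GT* by 2.83 ± 0.32, together with the activators *PAP1* (1.98 ± 0.26) and *TT8* (2.65 ± 0.48). The genes that fell were *MYBL2*, a repressor of the pathway (-1.05 ± 0.03), and *TTG1*, a WD40 partner of its activators (-0.58 ± 0.05).

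**Figure D3:**
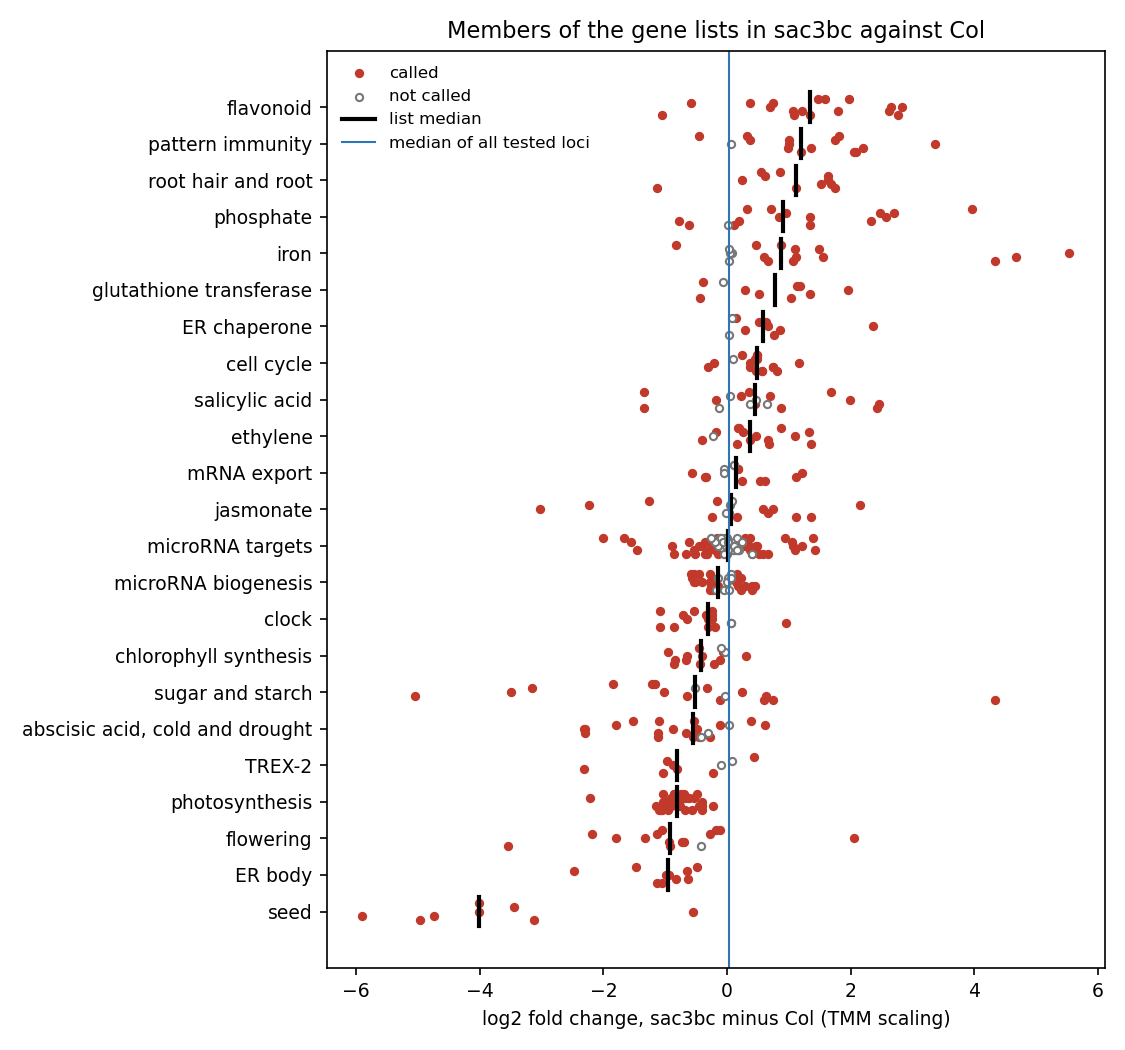
Log2 fold change of *sac3bc* against Col (x axis, TMM scaling) of each tested member of 23 gene lists; filled points were called at an adjusted p under 0.05, open points were not, black bars are list medians and the blue line is the median of all 22400 tested loci. Seed, ER body, flowering and photosynthesis lists lie to the left, flavonoid and pattern immunity lists to the right, and most other lists straddle the blue line.

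Defence genes were mostly higher. Of 15 genes of pattern-triggered immunity, 13 rose and 1 fell, beside 35.0% and 33.0% of all tested loci. The median was 1.2, and total counts gave 14 higher and 0 lower. By 2-fold or more 10 rose, beside 7.01% of all tested loci. *CYP71A13*, an enzyme of the phytoalexin camalexin, had 3.44, 2.13 and 2.85 CPM in Col and 27.6, 28.6 and 29.2 in *sac3bc* (3.36 ± 0.12; adjusted p = 7.54e-58, edgeR). *FLS2*, the flagellin receptor, had 33.1, 28.7 and 33.6 CPM in Col and 60.2, 64.8 and 63.2 in *sac3bc* (0.99 ± 0.05; adjusted p = 1.24e-36, edgeR). *RBOHD*, the oxidase of the immune burst, had 36.2, 36.0 and 35.6 and 81.1, 84.1 and 83.2 CPM (1.2 ± 0.05). Receptor, oxidase and phytoalexin genes thus rose together. *WRKY33* rose by 1.36 ± 0.06, *PAD3* by 2.2 ± 0.16, the marker kinase gene *FRK1* by 2.06 ± 0.20 and the receptor kinase partner *BIK1* by 1.01 ± 0.07. The one that fell was *CERK1*, the chitin receptor gene (-0.45 ± 0.07), and it was not called with total counts (-0.11).

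Salicylic acid genes were split: of 17 tested, 9 rose and 3 fell, beside 35.0% and 33.0% of all tested loci. The median was 0.45, and total counts gave 15 higher and 2 lower. *PR1*, the classical marker of the hormone, had 1.06, 0.588 and 1.5 CPM in Col and 5.43, 5.47 and 6.12 in *sac3bc* (2.43 ± 0.23; adjusted p = 4.82e-18, edgeR). *BGL2* (*PR2*), a glucanase gene, had 2.91, 2.13 and 2.1 CPM in Col and 11.6, 14.4 and 13.0 in *sac3bc* (2.46 ± 0.15; adjusted p = 8.03e-32, edgeR). The regulator *CBP60G* rose by 1.68 ± 0.14 and *WRKY70* by 0.87 ± 0.10. Other members went the other way. *PCC1*, a pathogen-responsive circadian gene, had 26.4, 27.2 and 28.7 CPM in Col and 9.78, 11.1 and 11.2 in *sac3bc* (-1.35 ± 0.09; adjusted p = 1.33e-30, edgeR), and *PBS3*, an enzyme of salicylic acid synthesis, changed by -1.35 ± 0.18. The remaining fall was in the receptor gene *NPR1* (-0.17 ± 0.06), which total counts turned to 0.17.

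Families that carry defence signals moved mainly up, in counts that stand beside 35.0% of all tested loci called higher and 33.0% called lower. Of 54 tested *WRKY* genes, 35 rose and 4 fell (median 0.51; 45 higher and 1 lower with total counts). The largest steps were in *WRKY71* (3.18 ± 0.54, with 5 counts over the Col libraries), *WRKY30* (2.22 ± 0.47), *WRKY48* (2.05 ± 0.18), *WRKY46* (1.86 ± 0.21) and *WRKY18* (1.82 ± 0.13). *WRKY47* had 8.99, 7.72 and 7.65 CPM in Col and 24.7, 27.2 and 26.9 in *sac3bc*. Of 31 tested cysteine-rich receptor-like kinases, 17 rose and 7 fell (median 0.58; 20 higher and 2 lower with total counts). Members near 0 in Col, such as *CRK24*, *CRK15* and *WRKY71*, passed the filter through the mutant libraries. Such members could be called only as rises, so the family counts describe the members that could be tested. *CRK24* had 3 counts over the Col libraries and 60 over the *sac3bc* libraries, a ratio of 13.6 with an exact 95% interval of 4.45 to 68.0. *CRK18* and *CRK21* fell by 0.89 ± 0.05 and 0.82 ± 0.05. Of 10 glutathione transferase genes, which serve detoxification, 7 rose and 2 fell (median 0.78). *GSTF6* had 21.3, 21.5 and 22.6 CPM in Col and 83.6, 81.2 and 88.1 in *sac3bc* (1.95 ± 0.06), and *GSTF7* rose by 1.13 ± 0.05.

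Ethylene signalling genes rose in 12 of 15 cases and fell in 2, beside 35.0% and 33.0% of all tested loci. The median was 0.38. Total counts gave 13 higher and 1 lower, and without Col replicate 3 there was 1 lower. *EBF2* and *EBF1*, F-box genes that mark EIN3 for degradation, rose by 1.36 ± 0.03 and 0.87 ± 0.04 (adjusted p = 3.72e-80 and 3.58e-47, edgeR). The receptor gene *ETR2* rose by 1.1 ± 0.11. *EIN3*, the main transcription factor of the pathway, fell from 198, 195 and 197 to 145, 143 and 156 CPM (-0.41 ± 0.03). Jasmonate genes moved both ways, with 7 higher and 5 lower of 16. These shares are near those of all tested loci and are no result about the list. The median was 0.06, and total counts gave 12 higher and 3 lower. *VSP2*, a vegetative storage protein gene of the wound branch, had 412, 409 and 413 CPM in Col and 89.3, 86.2 and 85.5 in *sac3bc* (-2.24 ± 0.03), and *VSP1* fell by 3.03 ± 0.05. The synthesis gene *LOX3* fell by 1.26 ± 0.12. *ORA59*, a transcription factor gene of the pathogen branch, rose by 2.15 ± 0.23, *JAZ1*, a repressor gene, by 1.12 ± 0.08, and the receptor gene *COI1* by 0.75 ± 0.05.

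Flowering genes mostly fell, promoters and repressors among them. Of 19 listed, 15 passed the filter, and 13 of these fell while 1 rose, beside 33.0% and 35.0% of all tested loci. The median was -0.92, and total counts gave 8 lower and 3 higher. *AGL20* (*SOC1*), which promotes flowering, had 168, 174 and 172 CPM in Col and 46.7, 52.5 and 49.4 in *sac3bc* (-1.79 ± 0.04; adjusted p = 2.25e-81, edgeR), and *AGL8* (*FUL*), another promoter, changed by -2.19 ± 0.19. Repressors fell too. *MAF1* (*FLM*) and *AGL31* (*MAF2*) fell by 0.94 ± 0.06 and 1.05 ± 0.07, and *FLC* went from 3.70, 1.91 and 3.45 to 0.286, 0.158 and 0.306 CPM (-3.54 ± 0.37), although 68.1% of its exonic bases overlap another locus. *FT*, the mobile flowering signal, changed by -0.69 ± 0.16. The member that rose was *TEM1*, a repressor of *FT*, from 13.8, 13.0 and 14.1 to 55.3, 55.9 and 58.6 CPM (2.06 ± 0.07; adjusted p = 1.36e-61, edgeR). The genes of flower organs were hardly expressed: 3 of 6 passed the filter, *SEP1* fell (-2.16 ± 0.35) and *SEP3* was not called (-0.07 ± 0.19, 0.27 with total counts), and their summed level was 5.70 to 8.73 CPM in Col and 4.63 to 6.26 in *sac3bc*.

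In the circadian clock, 13 of 16 genes were called lower and 1 higher, beside 33.0% and 35.0% of all tested loci. Total counts turned the median of -0.31 to 0.03, with 6 lower and 6 higher. *PRR7* had 317, 313 and 328 CPM in Col and 145, 153 and 153 in *sac3bc* (-1.09 ± 0.03; adjusted p = 2.25e-72, edgeR). The evening gene *ELF4* fell by 1.08 ± 0.07 and *TOC1* by 0.65 ± 0.04, while the morning gene *PRR9* rose from 31.1, 34.9 and 34.8 to 65.7, 66.3 and 64.9 CPM (0.96 ± 0.05). Sampling time is not given in the labels.

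The series title names microRNA biogenesis and the nuclear pore, and the transcripts of these machineries mostly changed little. None of the 32 microRNA factors and none of the 13 nucleoporins reached 2-fold. With TMM 15 factors were lower and 9 higher (median -0.14), beside 33.0% and 35.0% of all tested loci. Total counts gave 6 lower and 19 higher (median 0.20), so the list has no direction that holds under both scalings. Without Col replicate 2, 5 factors were higher and 15 lower. *AGO1*, which carries the microRNA, had 233, 235 and 240 CPM in Col and 155, 171 and 164 in *sac3bc* (-0.53 ± 0.03; adjusted p = 1.54e-36, edgeR). *GRP7* fell by 0.58 ± 0.02, *MAC3B* by 0.56 ± 0.04 and the uridylyltransferase gene *URT1* (AT2G45620) by 0.46 ± 0.04. These 4 were lower under both scalings. Of 13 nucleoporin genes 5 were higher and 5 lower (median 0.09). These shares are near those of all tested loci and are no result about nucleoporins. Total counts gave 11 higher and 1 lower, and without *sac3bc* replicate 1 there were 5 higher and 3 lower. *EMB3142*, the largest change among them, fell by 0.81 ± 0.05, and *RAE1*, which docks export complexes, rose by 0.35 ± 0.07. Of 14 mRNA export genes 8 were higher and 3 lower, beside 35.0% and 33.0% of all tested loci. The median was 0.15, and total counts gave 11 higher and 1 lower. *UAP56a* and *UAP56b*, near-identical copies of the helicase gene that loads export factors onto mRNA, rose by 1.11 ± 0.03 and 1.22 ± 0.03, the former from 123, 120 and 121 to 263, 260 and 264 CPM. They were the export genes that reached 2-fold, and reads may be divided between the copies in an uncertain way. *MOS11*, another export gene, fell by 0.57 ± 0.04.

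Targets of microRNAs did not move as 1 group. Of 68 tested, 24 rose and 20 fell (median 0.02), near the 35.0% and 33.0% of all tested loci. Total counts gave 47 higher and 9 lower (median 0.35). The medians of all tested loci were 0.03 and 0.37. Families differed. All 3 auxin receptor genes targeted by miR393 rose, with *AFB2* and *AFB3* at 1.07 ± 0.05 and 1.06 ± 0.04 (adjusted p = 1.69e-45 and 3.16e-54, edgeR). *AFB2* had 40.0, 37.5 and 41.8 CPM in Col and 85.1, 85.8 and 78.9 in *sac3bc*. Of 7 tested growth-regulating factor genes targeted by miR396, 5 rose and 0 fell, with *GRF3* at 1.1 ± 0.06. All 3 *HAM* genes targeted by miR171 rose, with a median of 0.29. In the other direction, 4 of 5 *TCP* genes targeted by miR319 fell under TMM (median -0.32), but their median was 0.02 with total counts. Within a family the members also split. For miR395, the sulfate transporter gene *SULTR2;1* and the ATP sulfurylase gene *APS4* fell by 1.67 ± 0.03 and 1.56 ± 0.04, while *APS3* rose by 1.22 ± 0.07 (adjusted p = 1.33e-88, 1.95e-76 and 5.05e-36, edgeR). *SULTR2;1* had 242, 243 and 255 CPM in Col and 77.2, 78.6 and 77.7 in *sac3bc*. For miR156, 3 of 10 *SPL* genes rose and 4 fell, from -2.0 for *SPL3*, of whose exonic bases 97.3% overlap another locus, to 1.42 for *SPL13A*, which has a near-identical copy. *MIR* loci were not analysed here, and a transcript level of a target does not show its microRNA.

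The following counts stand beside 35.0% of all tested loci called higher and 33.0% called lower (13620 and 3637 loci with total counts). Cell cycle genes rose in 14 of 17 cases and fell in 2 (median 0.48; 15 higher and 0 lower with total counts; 1 lower without Col replicate 3 or without *sac3bc* replicate 3), with the cyclin gene *CYCA1;1* at 1.16 ± 0.09. Of 9 tested DNA damage genes, 5 rose and 2 fell (1 fell without Col replicate 2). *GMI1*, a repair gene, had 2.38, 4.05 and 4.27 CPM in Col and 14.9, 14.4 and 17.7 in *sac3bc* (2.11 ± 0.13; adjusted p = 1.46e-32, edgeR), and *ATM*, a kinase gene of double-strand breaks, fell by 0.55 ± 0.06. The auxin response list had 8 rises and 3 falls among 14 genes, with *IAA1* at 1.01 ± 0.07 and *IAA7* at -0.51 ± 0.03. Of 14 cell wall loosening genes, 10 rose and 2 fell, with *XTH31* at 1.12 ± 0.04 and *XTH24* at -0.90 ± 0.05. Of 10 endoplasmic reticulum chaperone genes, 8 rose and 0 fell (median 0.57), with the near-identical copies *BIP2* and *BIP1* at 0.86 ± 0.03 and 0.76 ± 0.03. Of 141 cytosolic ribosomal protein genes, 77 were called higher and 21 lower, but the median was only 0.12 and moved to 0.45 with total counts (130 higher and 2 lower).

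Several lists moved both ways, in shares to be read beside the 35.0% of all tested loci called higher and 33.0% called lower; a share near these is no result about a list. Of 11 histone genes, 6 rose and 3 fell. *HIS1-3* fell furthest, and *HTR11*, a histone H3 gene, went from 1.59, 0.515 and 1.57 to 6.52, 6.42 and 6.63 CPM (2.43 ± 0.21). Of the 5 CBP-type acetyltransferase genes *HAC2* rose, *HAC4* was called lower (-0.28 ± 0.08, but 0.06 with total counts), and the other 3 were not called. In wax synthesis *CER1* fell from 166, 158 and 161 to 62.6, 61.4 and 61.5 CPM (-1.39 ± 0.04), while 6 of the 9 tested cuticle genes rose, with *KCS1* at 1.01 ± 0.04. Of 18 glucosinolate genes 8 rose and 6 fell. The aliphatic genes *MAM1* and *BCAT4* fell by 0.75 ± 0.03 and 0.64 ± 0.03, and the indole genes *SOT16* and *CYP83B1* rose by 0.70 ± 0.04 and 0.69 ± 0.03. Of 10 tested senescence genes 5 rose and 4 fell, the latter including *PAO* (*ACD1*) and *NYC1* of chlorophyll breakdown (-0.69 ± 0.05 and -0.52 ± 0.03). DNA methylation genes changed by at most 0.32 in either direction, and *DME* and *DML1* (*ROS1*), demethylase genes, were -0.20 ± 0.04 and -0.16 ± 0.04 with TMM but 0.14 and 0.17 with total counts. Of 11 SR splicing factor genes 5 were lower and 3 higher (median -0.08, turned to 0.25 by total counts), with *SR30* and *SR34* at -0.66 ± 0.05 and -0.59 ± 0.04 and *RS31* at -0.30 ± 0.06 (0.03 with total counts). Of 5 tested heat shock genes 2 rose and 0 fell, and neither reached 2-fold.

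Root and root hair genes rose, apart from *PYK10*, which is also a root gene. Of 11 tested, 10 rose and 1 fell, beside 35.0% and 33.0% of all tested loci (median 1.12, with the same counts under total counts). *PRP3*, a root hair wall protein gene, had 20.4, 21.9 and 23.9 CPM in Col and 65.4, 63.3 and 61.7 in *sac3bc* (1.52 ± 0.06; adjusted p = 1.11e-52, edgeR), *LRX1* rose by 1.64 ± 0.10 and *RSL4*, a master regulator of hair growth, by 1.69 ± 0.17. Without *PYK10* the summed level of the list was 111 to 113 CPM in Col and 216 to 225 in *sac3bc*; with it, 3749 to 3820 and 1862 to 1915. None of the 11 was at 0 in any library. Whether root made up a larger share of the *sac3bc* seedlings was not tested, and *IRT1*, *NRT2.5* and the phosphate transporter genes above are also expressed in roots.

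Some loci were read in 1 group alone. With at least 30 counts over one group and 0 over the other, 11 loci were seen in *sac3bc* and not in Col, and 1 in Col and not in *sac3bc*. After *NRT2.5* the highest were *OPT2*, an oligopeptide transporter gene, with 32, 27 and 29 counts in *sac3bc* (at least 20.0-fold higher), AT1G64820, a MATE transporter gene, with 23, 26 and 24 (at least 16.6-fold), and AT4G33720, of the family of PR1, with 19, 28 and 23 (at least 15.9-fold). AT1G35130, a pseudogene, had 14, 21 and 15 counts (at least 11.4-fold). All 11 also had counts in *thp1-5*. The locus read in Col alone of the pair was *XTH25*, a cell wall enzyme gene, with 30, 20 and 24 counts in Col and 0 in each *sac3bc* library, at least 36.2-fold lower; it had 2 counts over the *thp1-5* libraries. Bounds use 3 counts over the empty group and cover counting error only.

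A direct test against *thp1-5* shows where *sac3bc* differs from another TREX-2 genotype. edgeR called 2447 loci higher in *sac3bc* (10.9%) and 2702 lower (12.1%), but at 2-fold or more 183 higher (0.817%) and 50 lower (0.223%). With total counts 3698 were higher and 1769 lower, which raised the higher share of the calls from 47.5% to 67.6%. Of 17 salicylic acid genes, 14 were called higher in *sac3bc* than in *thp1-5* and 0 lower. *PR1* had 5.43, 5.47 and 6.12 CPM in *sac3bc* and 0, 0.113 and 0.0703 in *thp1-5*, or 319 counts against 3, a ratio of 86.0 with an exact 95% interval of 29.2 to 419. *LURP1*, a gene of defence against oomycetes, had 15.7, 15.5 and 14.8 and 1.11, 0.847 and 2.25 CPM (3.48 ± 0.16; adjusted p = 1.01e-42, edgeR). *PCR1*, a gene of cadmium resistance with 11 counts over the *thp1-5* libraries, differed by 3.44 ± 0.38, the wall-associated kinase gene *WAK3* by 2.81 ± 0.31 and *BGL2* by 2.68 ± 0.15. Members that fell in *sac3bc* were lower again in *thp1-5*: *PCC1* had 1.93, 1.86 and 1.69 CPM there, 2.55 below *sac3bc* on the log2 scale, and *PBS3* 1.11, 0.621 and 0.703 (1.71). By the same test, 13 of 16 phosphate genes, 8 of 10 glutathione transferase genes and 11 of 15 pattern immunity genes were called higher in *sac3bc* than in *thp1-5*, and none of them lower, also with total counts. *GPT2* had 10.2, 11.5 and 11.2 CPM in *thp1-5* (1.27 ± 0.09) and *PS2* 11.9, 11.2 and 10.8 (1.19 ± 0.09).

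The counts that follow stand beside 10.9% of all tested loci called higher in *sac3bc* than in *thp1-5* and 12.1% called lower. Lower were 34 of 35 photosynthesis genes (33 with total counts), with a median of only -0.19, and 6 of 8 seed genes, with a median of -1.72. Most of these seed genes passed the filter through their Col level. Chloroplast loci went the other way, with 29 of 105 higher in *sac3bc* than in *thp1-5* and 1 lower. *CRU3* had 6.99, 6.66 and 5.69 CPM in *thp1-5* (-4.55 ± 0.26; adjusted p = 8.44e-34, edgeR) and *CRA1* 10.9, 10.1 and 11.7 (-2.77 ± 0.15). The late embryogenesis gene *M17* and *BGLU19* differed by -1.78 ± 0.27 and -1.58 ± 0.22. *QQS*, at 1.41, 1.81 and 1.41 CPM in *thp1-5*, was not called between the genotypes (0.30 ± 0.22; adjusted p = 0.365, edgeR), nor was *HEC1* (-0.15 ± 0.11; adjusted p = 0.397, edgeR).

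**Figure D4:**
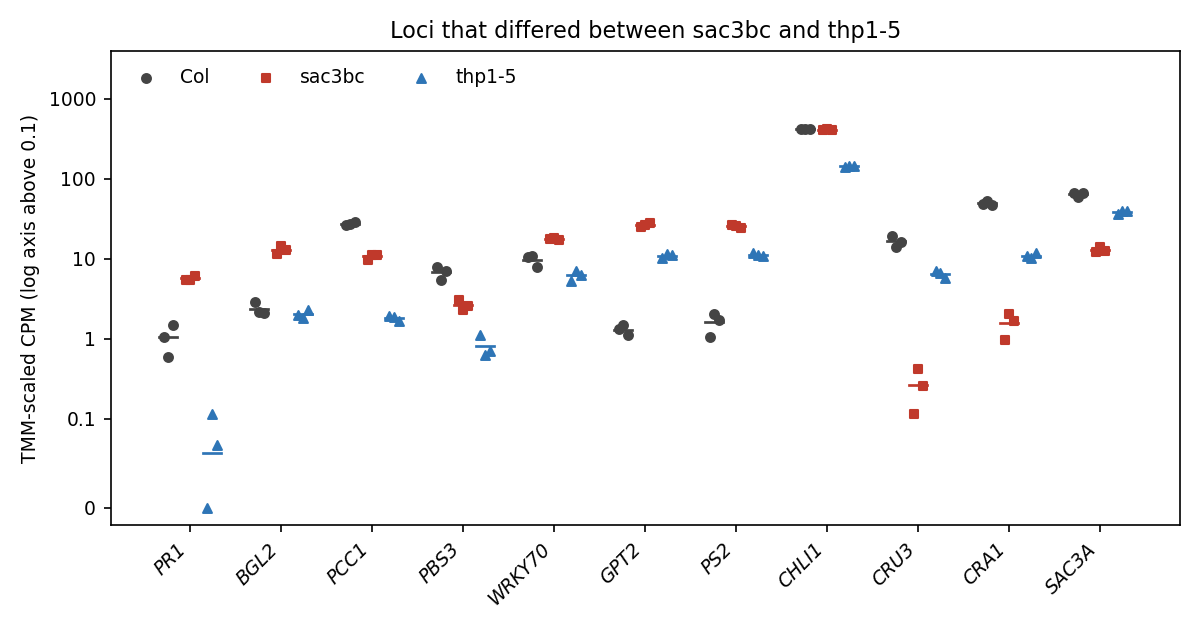
TMM-scaled CPM (y axis, logarithmic above 0.1) of 11 loci called between *sac3bc* and *thp1-5*, in each of the 9 libraries; points are libraries and short lines group means. *CHLI1* sits at the Col level in *sac3bc* and lower in *thp1-5*, *PCC1* and *PBS3* fall stepwise from Col to *sac3bc* to *thp1-5*, and *CRU3* and *CRA1* are lowest in *sac3bc*.

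Loci next to the *SAC3* genes were not all at the Col level. Of all tested loci 68.0% were called, so a called neighbour is by itself no result about its place. On one side of *SAC3C*, 3 consecutive loci were lower: AT3G54360 (-0.78 ± 0.04), AT3G54363 (-1.28 ± 0.26) and AT3G54366, a noncoding RNA (-1.95 ± 0.09). On its other side AT3G54400 rose by 0.60 ± 0.04. Around *SAC3B*, only AT3G06310 of the 5 neighbours with a fit was called (0.41 ± 0.09). Near *SAC3A*, which the genotype does not name, *JAL22* fell, while *JAL23* and *ABCG1* rose by 0.49 ± 0.10 and 0.80 ± 0.10. Across the genome 83 runs of 3 or more neighbouring tested loci changed 2-fold or more in 1 direction, 44 of them higher and 39 lower, with 275 loci in all. Of the 83 runs, 18 hold a locus that lies wholly on exons of another, so that reads may be shared, and 70 have at least 3 loci that do not. The longest run held 7 lower loci, from AT1G70820, a putative phosphoglucomutase gene, to AT1G70890, with 3 genes of major latex protein-like proteins among them, of which *MLP34* fell from 1419, 1369 and 1387 to 370, 370 and 362 CPM (-1.92 ± 0.02) and *MLP43* by 1.26 ± 0.03. A run of 6 higher loci held the lipid transfer protein genes *AZI1* and *EARLI1*, which act in systemic immunity and cold and which rose by 2.29 ± 0.05 and 2.41 ± 0.05; 2 of the 6 lie wholly on exons of another locus. *CRK11* to *CRK15* formed another of 5. A run of 5 pseudogenes, AT3G21010 to AT3G21050, rose as well: AT3G21030 had 0.264, 0.0736 and 0 CPM in Col and 2.40, 2.52 and 3.06 in *sac3bc* (4.57 ± 0.46). The clusters were named after their values were seen.

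The direction of change also went with gene structure. Of 2935 tested protein-coding loci without introns, 47.6% were called higher and 20.3% lower, with a median of 0.26. With 1 to 2 introns the shares were 38.0% and 29.1%, with 3 to 5 introns 34.8% and 35.0%, and with 6 to 10 introns 32.8% and 37.1%. Of 2835 loci with 11 or more introns, 28.1% were higher and 43.3% lower (median -0.07). With total counts the medians were 0.60 without introns and 0.27 with 11 or more. That scaling moves all loci by nearly the same step, so it could not change the order of the medians and is no check of it. Intronless genes were also expressed at lower levels, with a median of 6.22 CPM in Col against 34.0 for the class with 11 or more, and level went with direction by itself: of 5 equal bins by CPM the lowest had a median of 0.23 and the highest -0.19 (0.56 and 0.14 with total counts). Within each of the 5 bins the intronless loci had the highest median, 0.42 against 0.22 for 6 or more introns in the lowest bin and -0.00 against -0.21 in the highest (0.33 against 0.13 with total counts). The same held within classes of exonic length: between 1919 and 2528 bases, 54.2% of intronless loci were higher and 15.6% lower, against 34.0% and 37.3% with 6 or more introns. Loci are not replicates, and these shares are a description.

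**Figure D5:**
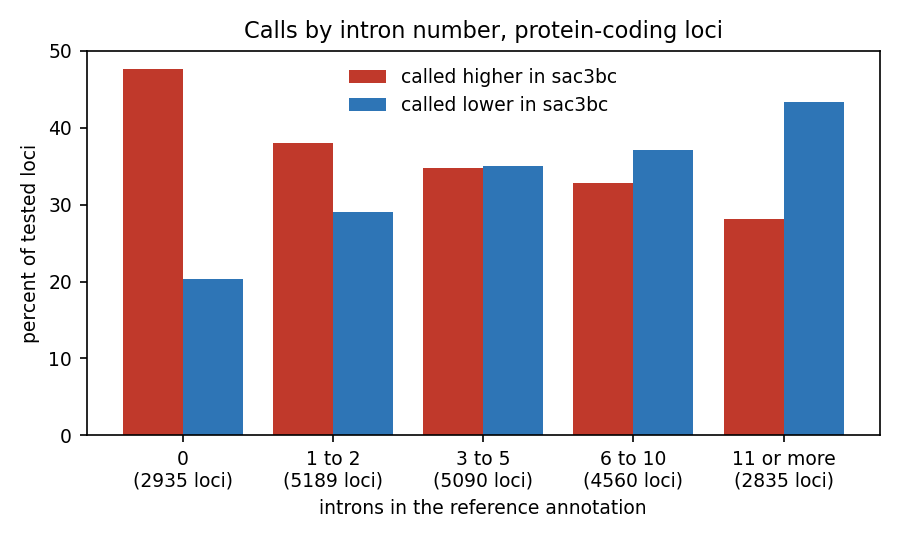
Percent of tested protein-coding loci called higher (red bars) or lower (blue bars) in *sac3bc* against Col (y axis, from 0) by the number of introns in the reference annotation (x axis, with the number of loci). The higher share falls from 47.6% without introns to 28.1% with 11 or more, and the lower share rises from 20.3% to 43.3%.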

How the data were processed

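Poly(A) RNA from 3 libraries per genotype was sequenced from 1 end with reads of 150 bases, per the labels. The authors deposited whole-number read counts per locus, 1 file per library. STAR and DESeq2 appear, with no version, in the submitters' processing notes; no source used here gives the counter, the strand setting or the genome build, and no coordinates are printed. Gene names and exons came from the TAIR10.1 annotation of RefSeq, which matched 37065 of 37361 loci. From the counts, edgeR 4.0.16 (R 4.3.3) fitted all 9 libraries with TMM factors, filterByExpr (minimum count 10) and the robust quasi-likelihood F-test, two-sided; a call is a Benjamini-Hochberg adjusted p under 0.05 over the 22400 loci tested. Values after ± are standard errors unless SD is written. Alternatives were total counts, RLE, DESeq2 1.42.0, no filter, 6 libraries, the replicate block, a test against a fold of 1.2, loci without shared exonic bases, and each library left out. Genes named are *THP1* and the *SAC3* genes with their neighbours, and the 15 largest rises and falls among called loci with a symbol, a mean of at least 1 CPM and no overlap. Added to these are the 6 largest gains and losses in CPM, up to 4 members per list by adjusted p and loci at 0 in 1 group. The 5 largest differences from *thp1-5* each way under the same limits are also named. Further list, family and run members were named after their values were seen. The members and lists were chosen with earlier results of these data known. Counting intervals cover counting error only. 1 gene that this rule selects is not reported here.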

Additional observations from a re-analysis of the deposited data

How the results depend on the processing

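With total counts alone in place of TMM, 13620 loci were called higher and 3637 lower in *sac3bc* against Col, 3044 and 587 of them at 2-fold or more, and 3698 were higher and 1769 lower than in *thp1-5*. Tested against a fold of 1.2, 9660 loci were called (4894 higher, 4766 lower). Among loci that share no exonic base with another, of which fewer were tested, 10005 were called (5176 higher, 4829 lower). DESeq2 called 13675, RLE factors 15168, no filter 15590 and the 6 libraries alone 15054. Leaving out 1 library in turn gave 14294 to 14695. Same-numbered libraries deviated together little, with correlations of -0.0093 to 0.0375, and not every library correlated best with its own number. These correlations cannot exclude a weak pairing. With the replicate block 15202 loci were called. The sign turned under total counts for *HAC4* (0.06), *RS31* (0.03), *SEP3* (0.27), *DME* (0.14), *DML1* (0.17), *CHLI1* (0.29), AT3G06270 (0.33), AT3G06320 (0.29) and AT3G54390 (0.20), and, among further called list members named above, for *NPR1* (0.17) and *RBCS1B* (0.12). Without a filter it turned for AT3G06270 (0.00). Leaving out 1 library in turn, AT3G06270 ranged from -0.04 to 0.03, *SEP3* from -0.24 to 0.19 and AT3G06320 from -0.17 to 0.23, none of them called with all libraries. The cause was not tested. Where a group held few counts, as at the seed and pseudogene loci, depth limits the size of a fold change.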
